A study of Mus musculus with 30 samples.

Results

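The 44 genes described here encode proteins of the presynaptic nerve terminal. They were taken as a fixed list of gene symbols that covers synaptic vesicle proteins, the SNARE fusion machinery and the active zone. The list was chosen with earlier results of these data known, so it was given no test as a set. All 44 were found among the 18240 genes of the deposited table, and all 44 passed the filter for testing, a mean of 10 or more normalized counts, which kept 16824 genes. The libraries came from the prefrontal cortex of C57BL/6J mice of both sexes at postnatal day 40. The tested comparisons concern mice heterozygous for Adnp (HT), a gene for a transcriptional and chromatin regulator linked to a human neurodevelopmental disorder, and 2 drugs given to them.

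The groups were HT mice given lithium (3 female and 4 male libraries), HT mice given fluoxetine (4 and 4), HT mice given vehicle (4 and 3) and wild-type (WT) mice given vehicle (4 and 4), 30 libraries in all. Lithium is a mood stabilizer that inhibits the kinase GSK3, and fluoxetine is an antidepressant that blocks serotonin reuptake. No library of drug-treated WT mice was analysed here, so a drug effect was read only within HT mice. Dose, duration of treatment, the sequence removed from the mutant Adnp allele and the link between libraries and mice were not given in the sources used here. Comparisons of any HT group with WT vehicle share the same 8 WT libraries, and both drug comparisons share the same 7 HT vehicle libraries.

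A presynaptic terminal stores transmitter in vesicles, docks and primes some of them at the active zone, and fuses them with the plasma membrane when calcium enters. Fusion is driven by SNARE proteins, is triggered by synaptotagmins that bind calcium, and is held in check and promoted by complexins. The vesicle membrane is then taken back by endocytosis and refilled. In the cortex most terminals release glutamate and come from pyramidal neurons, while a smaller number release GABA. The mRNAs for these proteins lie mainly in neuronal cell bodies, so a dissected block of prefrontal cortex reports the neurons in the block and not the axons that end there. In such bulk tissue, fewer cells of a type and less RNA per cell cannot be told apart.

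No member passed the test for genotype, for either drug, for lithium against fluoxetine, for either drug against WT, or for sex. The levels varied instead from library to library, and 2 libraries, HT lithium male 4 and HT vehicle female 1, held lower presynaptic levels than the rest. Most members had negative log2 fold changes in each comparison of an HT group with WT, with medians of −0.114 for HT lithium, −0.062 for HT fluoxetine and −0.049 for HT vehicle. With libraries scaled to their sums, these medians were −0.075 for HT lithium, −0.039 for HT fluoxetine and −0.029 for HT vehicle. That scaling also moved the medians over all genes, to 0.038, 0.022 and 0.019 in the same order. With the excitatory neuron marker level as a covariate the members' medians were −0.064 for HT lithium, −0.032 for HT fluoxetine and −0.018 for HT vehicle. With the deposited scaling, by contrast, the median genotype difference over all genes tested was −0.0010.

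Depth varied between libraries. Between 23771758 and 34307061 reads per library had been assigned to genes, with size factors, set by the authors, of 0.840 to 1.17. WT libraries had 26800833 to 34307061 reads and HT libraries 23771758 to 30572191. The 44 genes took 1.96% to 2.50% of the normalized counts of a library. Adnp summed with the overlapping annotated gene Gm20716 had 3404 to 3887 normalized counts in the 22 HT libraries and 4226 to 4433 in the 8 WT libraries, so no library went against its genotype label. Excitatory neuron markers, which define the labelled cortical tissue, were above 0 in every library, with sums of 108491 to 175449 normalized counts. Markers of neighbouring regions varied more: summed striatal markers ranged between 6554 and 48988 and summed olfactory bulb markers between 4908 and 28955.

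To show what the promoters of these genes look like, the sequences of Syn1 and Unc13a are given, since Syn1 is a textbook neuronal promoter and Unc13a had the smallest unadjusted p of all members under lithium. Each is the 250 bases before the RefSeq transcription start on assembly GRCm38.p6, written 5′ to 3′ along the gene, with matches to searched motifs in capitals. Both genes lie on the minus strand. The Syn1 window, at chrX:20920919-20921168, overlaps the 5′ end of the longer GENCODE gene model used here for gene positions, which reaches position 20921004. The Unc13a window, at chr8:71671758-71672007, directly adjoins the gene.
Syn1: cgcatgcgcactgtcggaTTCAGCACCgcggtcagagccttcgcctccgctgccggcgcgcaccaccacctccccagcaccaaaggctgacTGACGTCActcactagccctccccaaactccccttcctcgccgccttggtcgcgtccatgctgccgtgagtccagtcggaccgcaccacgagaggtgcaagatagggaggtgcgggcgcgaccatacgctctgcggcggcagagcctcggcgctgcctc
Unc13a: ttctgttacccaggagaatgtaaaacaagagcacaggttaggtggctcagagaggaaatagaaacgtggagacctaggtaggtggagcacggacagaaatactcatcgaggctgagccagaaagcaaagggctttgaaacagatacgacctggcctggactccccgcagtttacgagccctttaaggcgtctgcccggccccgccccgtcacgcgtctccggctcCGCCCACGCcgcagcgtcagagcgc
The capitals in Syn1 mark TTCAGCACC, a piece of the RE1 element bound by the neuronal gene repressor REST, 232 to 224 bases before the start, and TGACGTCA, the cyclic AMP response element bound by CREB, 159 to 152 bases before it. In Unc13a they mark CGCCCACGC, the reverse strand of the EGR element GCGTGGGCG, 25 to 17 bases before the start.

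RefSeq gave 48 promoter windows for 35 of the 44 members. The cyclic AMP response element TGACGTCA, searched on both strands, was in 1 of the 48 windows (Syn1) and in 1.55% of all 32851 windows of this length. The AP-1 element TGANTCA was in 4 windows (Erc2, Rph3a, Sypl and Syt2) and in 6.75% of all windows. The EGR element was in 2 windows (Synj1 and Unc13a) and in 0.536% of all windows, and the RE1 piece was in 1 (Syn1) and in 0.301%. The members' windows had a median GC content of 61.2%, against 52.4% for all windows. A match describes letters in the window and does not show that a factor binds there.

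Levels of the members spanned more than 2 orders of magnitude. Per kilobase of annotated exons, the mean over all 30 libraries was highest for Snap25, the plasma membrane SNARE, at 10476 normalized counts per kilobase. Slc17a7, which loads glutamate into the vesicles of cortical neurons, followed at 8312, Vamp2, the vesicle SNARE, at 7613, and Syp, the vesicle membrane protein synaptophysin, at 7442. Cplx1 (7251) and Dnm1 (7148) came next, and the libraries of neighbouring genes in this order overlapped. At the low end stood Syn3 at 38.4, Slc17a6 at 89.2, Sypl at 102.6, Syt2 at 109.9 and Cplx3 at 120.4.

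**Figure D1:**
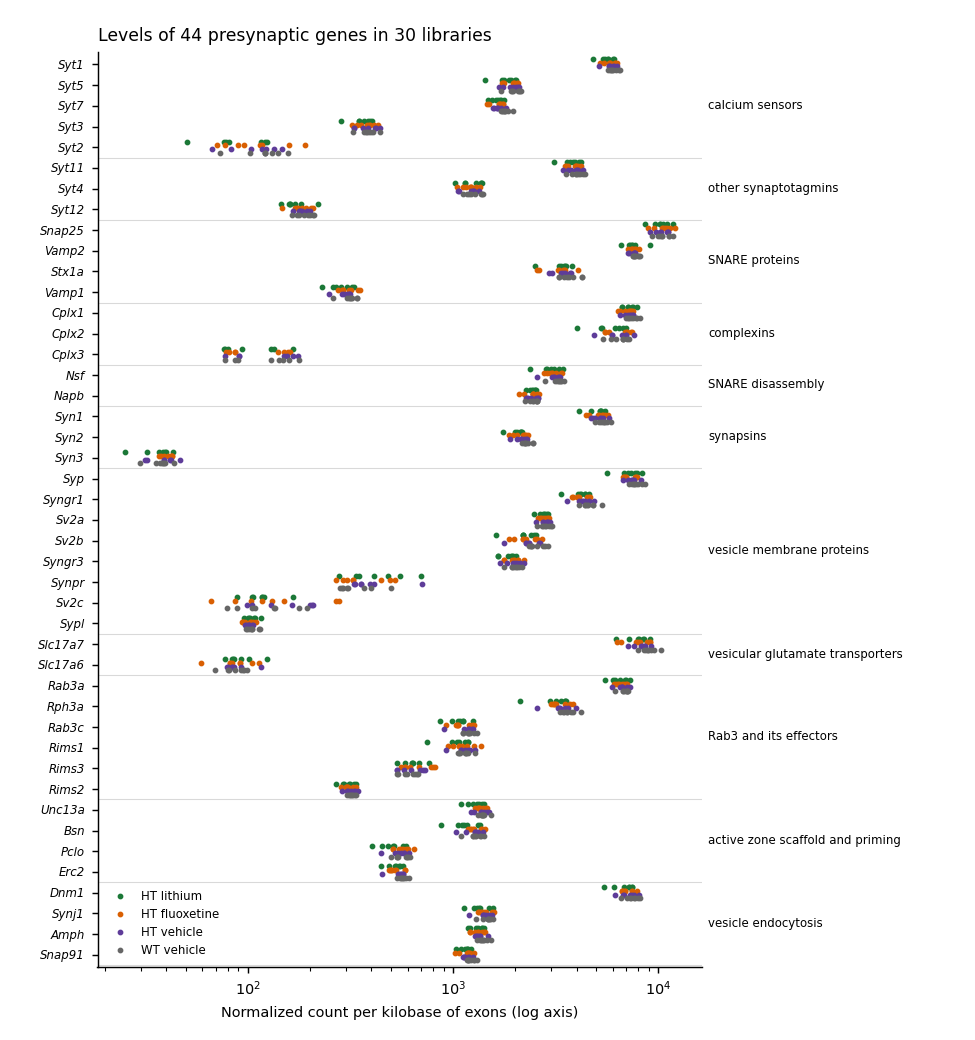
Normalized counts per kilobase of exons (log axis) of the 44 genes, ordered by role, with 1 point for each of the 30 libraries coloured by group. The levels run between a mean of 38.4 for Syn3 and 10476 for Snap25, and every pair of groups overlaps for each gene except HT lithium and WT vehicle for Syn2.

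Families held abundant genes beside rare ones. Slc17a7 exceeded Slc17a6, the glutamate transporter typical of subcortical neurons, by 50.5-fold to 155-fold per kilobase of exons, with a median of 96.4-fold over the libraries. Syt1, the fast calcium sensor of most forebrain neurons, exceeded Syt2, its close relative of fast-firing and hindbrain neurons, by a median of 53.4-fold. Vamp2 exceeded Vamp1 by a median of 25.2-fold, Syn1 exceeded Syn3 by 138-fold and Sv2a exceeded Sv2c by 22.7-fold. Over the longest coding transcript in place of all exons, the Vamp2 and Syn1 medians were 12.9-fold and 45.7-fold. Other relatives stood close together. Cplx1 over Cplx2 had a median of 1.13 and a range of 0.978 to 1.65, Syngr1 over Syngr3 a median of 2.24, and Rims1 over Rims2 a median of 3.57 by exons and 1.89 by transcript. Per kilobase of exons Sv2b was at 2361 and Sv2a at 2792, an order that turned over the longest transcript, at 3582 for Sv2b and 2987 for Sv2a. Syn2 was at 2164 per kilobase of exons, below Syn1 at 5188. The plot of levels by gene shows these families as pairs far apart or side by side.

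The genes also differed in how much they varied between libraries of a group. The residual SD on the log2 scale was 0.073 for Sv2a, 0.074 for Snap91 and 0.076 for Vamp2, so that 1 SD of Sv2a was a 1.05-fold difference. It was 0.53 for Sv2c, 0.49 for Cplx3, 0.41 for Syt2 and 0.39 for Synpr. The median over the members was 0.125, against 0.134 over all genes tested, and 24 of the 44 members lay under the value for all genes. The 4 most variable members are genes with uneven expression across cell types or neighbouring regions: Sv2c and Synpr have low levels in most cortical neurons and high levels in parts of the basal ganglia or in some interneurons, as known from mouse brain.

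Group means of further members follow by role, as normalized counts ± SD over 7 HT lithium, 8 HT fluoxetine, 7 HT vehicle and 8 WT vehicle libraries. Syp, the most abundant vesicle membrane protein of many terminals, averaged 37920.0 ± 4664 in HT lithium, 37491 ± 2551 in HT fluoxetine, 38838 ± 2463 in HT vehicle and 40778 ± 2453 in WT vehicle libraries. Syngr1, a synaptogyrin, averaged 19996 ± 1937 in HT lithium, 20198 ± 1665 in HT fluoxetine, 20718 ± 1952 in HT vehicle and 22197 ± 1763 in WT vehicle libraries. Sv2a, the vesicle glycoprotein that binds levetiracetam, averaged 12762 ± 672 in HT lithium, 12853 ± 580.5 in HT fluoxetine, 13006 ± 625.1 in HT vehicle and 13140.3 ± 715 in WT vehicle libraries. WT vehicle had the highest mean for all 3 genes, in each case by less than 1 SD of either group over HT vehicle, the next highest. Syn1, which holds vesicles in the reserve pool, averaged 16601 ± 1551 in HT lithium, 16981 ± 1441 in HT fluoxetine, 17003 ± 1222 in HT vehicle and 17798 ± 948 in WT vehicle libraries. Syn3, Sypl and Slc17a6 were low in every group, with means of 447 to 498 for Syn3, 836 to 874 for Sypl and 472 to 499.9 for Slc17a6.

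Among the genes that bring vesicles to the active zone and fuse them, Rab3a averaged 14403 ± 1385 in HT lithium, 14623 ± 788 in HT fluoxetine, 14930.2 ± 945 in HT vehicle and 15219 ± 684 in WT vehicle libraries. Its effector Rph3a, rabphilin, averaged 14702 ± 2356 in HT lithium, 15416 ± 1498 in HT fluoxetine, 15577 ± 2018 in HT vehicle and 16975 ± 1283 in WT vehicle libraries. Rims1, which joins Rab3 to the priming machinery, averaged 7755 ± 1139 in HT lithium, 8278 ± 1014 in HT fluoxetine, 8337 ± 825 in HT vehicle and 8403 ± 540.1 in WT vehicle libraries. The lithium group had the lowest mean and the largest SD of all 3. Stx1a, the syntaxin of the plasma membrane, averaged 8948 ± 1069 in HT lithium, 8738 ± 1311 in HT fluoxetine, 9042 ± 826 in HT vehicle and 9872 ± 1004 in WT vehicle libraries. Vamp1, a vesicle SNARE typical of brainstem and fast-spiking neurons, had group means of 2897 to 3189. The ATPase Nsf, which takes spent SNARE complexes apart, averaged 24900.2 ± 2857 in HT lithium, 25688 ± 1809 in HT fluoxetine, 25845 ± 2123 in HT vehicle and 27042 ± 1672 in WT vehicle libraries. Its partner Napb was more even, with group means of 17039 to 17420.2.

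Syt1 averaged 46743 ± 3563 in HT lithium, 48699 ± 3199.9 in HT fluoxetine, 48759 ± 3056 in HT vehicle and 50639.8 ± 2574 in WT vehicle libraries. Syt5, another synaptotagmin that binds calcium, averaged 4335 ± 482 in HT lithium, 4549 ± 335 in HT fluoxetine, 4598 ± 379 in HT vehicle and 4744 ± 339 in WT vehicle libraries. Both had HT lithium lowest and WT vehicle highest, with overlapping libraries. Syt3, a calcium sensor of high affinity, had group means of 1128 to 1203. Syt4 and Syt11, which do not bind calcium in the way Syt1 does, had group means of 4679 to 4929 and of 19726 to 20981. Cplx1 averaged 15786 ± 1014 in HT lithium, 15453 ± 971 in HT fluoxetine, 15754 ± 843 in HT vehicle and 16475 ± 923 in WT vehicle libraries. Its highest mean was again in WT vehicle, while HT lithium and HT vehicle differed by less than 1 SD.

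In the endocytosis group, Dnm1, the dynamin that cuts vesicles from the membrane, averaged 35754 ± 4021 in HT lithium, 37222 ± 2319 in HT fluoxetine, 37630.0 ± 3283 in HT vehicle and 39274 ± 2633 in WT vehicle libraries. Synj1, synaptojanin 1, which uncoats new vesicles, averaged 10943 ± 1159.7 in HT lithium, 11532 ± 772 in HT fluoxetine, 11433 ± 908 in HT vehicle and 11841 ± 683 in WT vehicle libraries. Amph, amphiphysin, which bends the membrane and recruits dynamin, averaged 5939 ± 410.2 in HT lithium, 5990.1 ± 366 in HT fluoxetine, 6072 ± 296 in HT vehicle and 6348 ± 315 in WT vehicle libraries. For all 3, the libraries of the 4 groups overlapped.

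Lithium was compared with vehicle in HT mice, 7 libraries against 7. With limma, 0 of the 44 members passed a Benjamini-Hochberg adjusted p of 0.05 over all genes, where 0.0892% of all genes did (15 genes). No member had an unadjusted p under 0.05, and edgeR and DESeq2 called 0 members and likewise found 0 under an unadjusted 0.05. The limma count was 5 without HT vehicle female 1, 4 without HT lithium male 2, 3 without HT lithium female 2 and 1 without HT lithium female 1. In the same comparison 9 of 12 immediate early genes, which neurons switch on with activity, were called higher. The members' log2 fold changes ranged between −0.41 and 0.088, with a median of −0.055, and 36 of 44 were negative, against a median of −0.0039 over all genes. Without HT lithium male 4 the median was −0.019, without HT vehicle female 1 it was −0.090, and without HT vehicle female 2 it was −0.033. It was −0.036 with library-sum scaling, where the median over all genes was 0.015, and −0.034 with the excitatory marker covariate.

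The proteins of the active zone and vesicle priming had the lowest values among the roles with 4 or more members, with a median of −0.109 and all 4 members negative. Unc13a encodes Munc13-1, which primes vesicles for fusion. It had 13764, 16465 and 17848 normalized counts (lowest, median and highest) in HT lithium libraries, against 15392, 17339 and 18855 in HT vehicle libraries. The groups overlapped over most of their range, and the log2 fold change was −0.096 (SE 0.0539, 95% interval −0.21 to 0.014, limma adjusted p = 0.879).

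Bsn encodes Bassoon and Pclo encodes Piccolo, the giant scaffold proteins of the active zone. Bsn had 13998, 18030.4 and 21469 normalized counts in HT lithium libraries and 16427, 20498 and 22245 in HT vehicle libraries, a log2 fold change of −0.13 (SE 0.0787, 95% interval −0.29 to 0.029, limma adjusted p = 0.879). Pclo had 9052, 11401 and 13253 normalized counts in HT lithium libraries and 10021, 12573 and 13691 in HT vehicle libraries, a difference of −0.12 (SE 0.0769, 95% interval −0.28 to 0.036, limma adjusted p = 0.879). For both genes the lowest lithium value was that of male 4 and the lowest vehicle value that of female 1. Syngr3, a synaptogyrin of the vesicle membrane, had 3425, 3949.7 and 4184 normalized counts in HT lithium libraries and 3502, 4137 and 4588 in HT vehicle libraries. Its log2 fold change was −0.095 (SE 0.0578, 95% interval −0.21 to 0.023, limma adjusted p = 0.879), with the groups again overlapping.

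**Figure D2:**
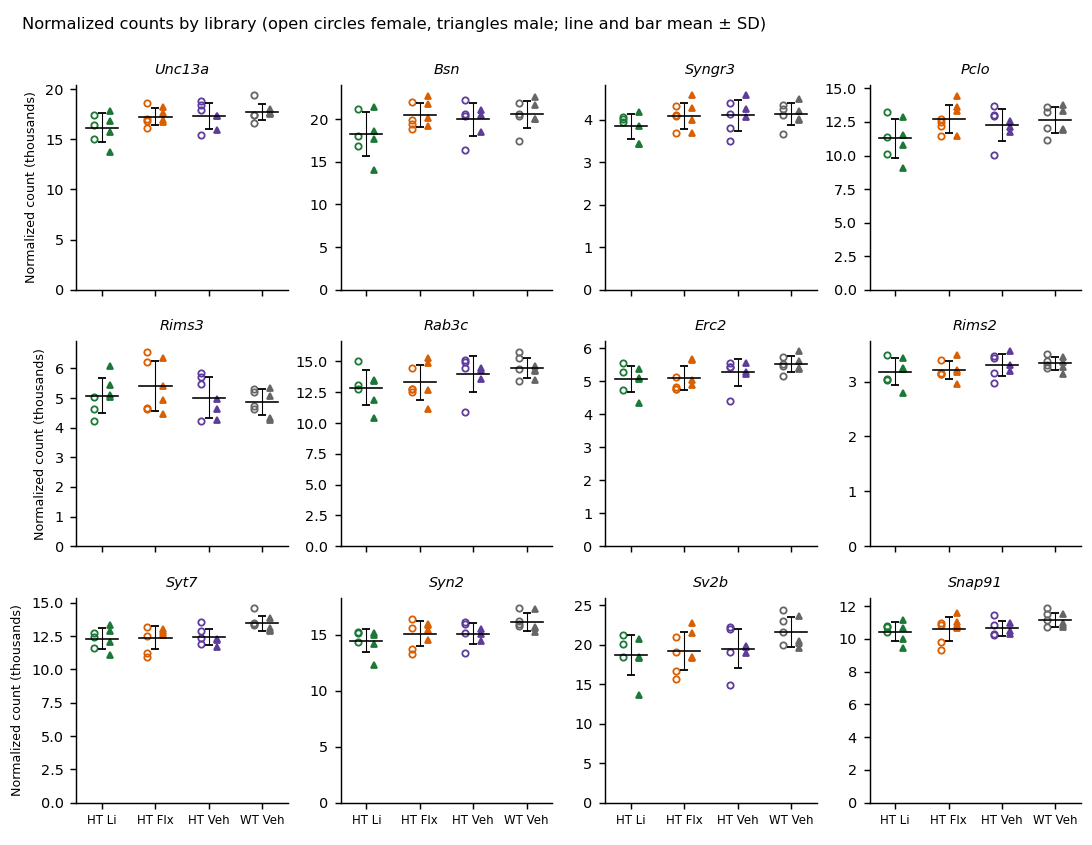
Normalized counts, in the multiples named on the axis, in each library for the 4 members with the smallest p under lithium (top row), fluoxetine (middle row) and genotype (bottom row), with circles for female and triangles for male libraries and lines for the group mean ± SD. In every panel the groups of the comparison shown in that row overlap, and the mean of Syt7 is 12416 in HT vehicle and 13451 in WT vehicle libraries.

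The 3 complexins had a lower median, −0.14, made up of 0.0033 for Cplx1, −0.14 for Cplx2 and −0.24 for Cplx3. The remaining roles had medians nearer 0. The calcium sensors had a median of −0.079 with 5 of 5 negative, the synapsins, which tether vesicles to one another, −0.055 with 3 of 3 negative, and the endocytosis genes −0.044 with 4 of 4 negative. The 6 genes of Rab3 and its effectors, which mark vesicles for docking, had a median of −0.067 with 1 positive, Rims3. The 8 vesicle membrane genes had −0.038, the SNARE proteins −0.016, and the SNARE disassembly genes Nsf and Napb −0.022. Snap25 averaged 69798 ± 6764 normalized counts in HT lithium libraries and 70720.4 ± 5384 in HT vehicle libraries (SD, n = 7 each), a log2 fold change of −0.014 with a 95% interval of −0.16 to 0.13.

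The widest differences under lithium were in the genes that varied most between libraries. Sv2c, a vesicle glycoprotein, averaged 1135 ± 233 normalized counts in HT lithium libraries and 1543 ± 467 in HT vehicle libraries (SD, n = 7 each), a log2 fold change of −0.41 with a 95% interval of −0.99 to 0.18. Fitted with the striatal marker level as a covariate, its difference was −0.13. Cplx3, a complexin of deep-layer cortical neurons and retina, had −0.24 (95% interval −0.77 to 0.29), and the sign turned to 0.0076 with the striatal covariate and to 0.064 with striatal and olfactory bulb covariates together. Syt2 had −0.26 and Cplx2 −0.14, and with both covariates these were −0.00039 and −0.00054.

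Some marker lists of other regions and cell types had log2 fold changes that were all of the same sign between the same groups. No gene of the lists that follow was called, and their summed levels overlapped between the groups. In lithium against vehicle, 10 of 10 olfactory bulb markers were positive with a median of 1.03, and 0 of 10 striatal markers were, with a median of −0.63. Summed olfactory bulb markers ranged between 7169.5 and 28955 in HT lithium libraries and between 7117 and 27147 in HT vehicle libraries. Summed striatal markers ranged between 6741 and 19737 in HT lithium libraries and between 7085 and 31075 in HT vehicle libraries. Meningeal fibroblast markers were positive in 8 of 8, with a median of 0.44. Of these 8 markers, 4 had an unadjusted p under 0.05, as did 5.72% of all genes. Summed meningeal markers ranged between 21527 and 51679.6 in HT lithium and between 15241 and 27572 in HT vehicle libraries. Oligodendrocyte markers were positive in 0 of 8, with a median of −0.20. No marker of these lists was at 0 in any library. With striatal and olfactory bulb marker levels as covariates, an alternative added after the data had been seen, the members' median under lithium was −0.0063. What part dissection had in the presynaptic values was not tested beyond these fits.

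Fluoxetine was compared with vehicle in HT mice, 8 libraries against 7. The members lay closer to 0 than under lithium, with a median log2 fold change of −0.014, against −0.0016 over all genes. By limma 0 of 44 members passed the test, where 0.0357% of all genes did (6 genes), and 0 had an unadjusted p under 0.05 by limma, edgeR or DESeq2. The limma count was 2 with the striatal and olfactory bulb covariates, where the median was −0.0068, and 2 with HT lithium male 4 left out together with HT vehicle female 1, where it was −0.032. Each log2 fold change was between −0.21 and 0.12, and 40 of the 44 were within 0.1 of 0 on the log2 scale. Negative values stood in 34 of 44 members, a count that was 22 without HT fluoxetine male 1 and 20 without HT vehicle female 2, when the median was 0.0023.

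The member with the smallest p was Rims3, an active zone protein of the RIM family that lacks the Rab3-binding part of its relatives. Rims3 had 4460.3, 5180.0 and 6544 normalized counts in HT fluoxetine libraries, against 4230.2, 4967 and 5851 in HT vehicle libraries. The log2 fold change was 0.12 (SE 0.0882, 95% interval −0.064 to 0.30, limma adjusted p = 1), and most of the fluoxetine libraries lay inside the vehicle range.

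Rab3c, a small GTPase of vesicles, had 11160.0, 12774 and 15286 normalized counts in HT fluoxetine libraries and 10886, 14445 and 15129 in HT vehicle libraries. Its log2 fold change was −0.072 (SE 0.0728, 95% interval −0.22 to 0.078). Erc2, an active zone scaffold, had 4759, 4974 and 5676 normalized counts under fluoxetine and 4396, 5428 and 5567 under vehicle, a difference of −0.050 (SE 0.0515). Both genes thus had lower medians under fluoxetine but a lowest value in the vehicle group, that of HT vehicle female 1. Rims2, which links Rab3 vesicles to calcium channels, had 2958, 3168 and 3481 normalized counts under fluoxetine and 2976, 3305 and 3558 under vehicle, a difference of −0.044 (SE 0.0459, limma adjusted p = 1).

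By role, the medians under fluoxetine lay between −0.034 for the complexins and 0.021 for the active zone genes, which had 3 of 4 positive. The 8 vesicle membrane genes were all negative with a median of −0.032, and the 4 SNARE proteins had 3 positive with a median of 0.016. Vamp2 averaged 28839 ± 1073 normalized counts in HT fluoxetine libraries (n = 8) and 28646 ± 932 in HT vehicle libraries (SD, n = 7), with a 95% interval for the log2 fold change of −0.077 to 0.097.

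Sv2c was uneven among the fluoxetine libraries. It had 2704 normalized counts in female 2 and 2600.5 in female 4, while every other library of the study had at most 2023. Those 2 libraries also had the highest striatal marker levels, 2.06 and 2.26 above the mean of all libraries on the log2 scale.

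Genotype was compared between HT vehicle and WT vehicle, 7 libraries against 8. By limma 0 of 44 members were called, where 0.731% of all genes were (123 genes). One member, Syt7, had an unadjusted p under 0.05 by limma, and edgeR and DESeq2 also found 1 and called 0. That is 2.27% of the members, against 6.6% of all genes by limma. The limma count was 5 without HT vehicle female 2, and 2 without HT vehicle female 3 or without HT lithium male 4, which enters only the shared estimate of the spread. The median log2 fold change was −0.049 with 37 of 44 negative. Without HT vehicle female 1 the median was −0.024, and with the striatal and olfactory bulb covariates it was −0.032.

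Syt7 encodes a high-affinity calcium sensor known for asynchronous release, facilitation and vesicle replenishment. It lies at chr19:10389090-10453180 on the plus strand (GRCm38). Syt7 had 11716, 12307 and 13535 normalized counts in HT vehicle libraries, against 12869, 13364 and 14615 in WT vehicle libraries. The ranges overlapped between 12869 and 13535, and the log2 fold change was −0.12 (SE 0.0433, 95% interval −0.21 to −0.032, limma adjusted p = 0.365). In HT lithium libraries it had 11050.4, 12452 and 13303 normalized counts, and in HT fluoxetine libraries 10931, 12645 and 13192. Against WT these were −0.13 for lithium (limma adjusted p = 0.12) and −0.12 for fluoxetine (limma adjusted p = 0.186), both set against the same WT libraries.

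Syn2, the synapsin that tethers reserve vesicles at many excitatory terminals, had 13391, 15119.6 and 16106 normalized counts in HT vehicle libraries, against 15239, 15838 and 17348 in WT vehicle libraries. The log2 fold change was −0.099 (SE 0.0514, 95% interval −0.20 to 0.0067, limma adjusted p = 0.811). Sv2b, a vesicle glycoprotein, had 14873, 19715 and 22249 in HT vehicle and 19578, 21011 and 24425 in WT vehicle libraries, a difference of −0.15 (SE 0.0885, 95% interval −0.34 to 0.029, limma adjusted p = 0.886). Snap91, the clathrin adaptor AP180, had 10232, 10483 and 11457 in HT vehicle and 10710.3, 11050.2 and 11908 in WT vehicle libraries, a difference of −0.069 (SE 0.0405, limma adjusted p = 0.887). All 3 genes had overlapping groups with the lower median in HT.

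The synapsins had a genotype median of −0.068, the SNARE proteins −0.066 with 4 of 4 negative, the endocytosis genes −0.063 with 4 of 4 negative, and the active zone genes −0.043 with 4 of 4 negative. Slc17a7 averaged 44435 ± 3674 normalized counts in HT vehicle libraries (n = 7) and 48644 ± 3845 in WT vehicle libraries (SD, n = 8), a log2 fold change of −0.13 (95% interval −0.29 to 0.037, limma adjusted p = 0.919). Its difference was −0.061 with the excitatory marker covariate, from which Slc17a7 itself had been left out. The 10 excitatory markers, Slc17a7 included, were all negative in this comparison, with a median of −0.094 and 0 called. Excitatory marker sums without Slc17a7 ranged between 128046 and 164808 normalized counts in HT vehicle libraries and between 138338 and 169161 in WT vehicle libraries.

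The 2 largest genotype differences were positive and belonged to the variable genes. Sv2c averaged 1543 ± 467 normalized counts in HT vehicle (n = 7) and 1241 ± 398 in WT vehicle libraries (SD, n = 8), a log2 fold change of 0.34 with a 95% interval of −0.22 to 0.90. Synpr, the vesicle protein synaptoporin, averaged 3894 ± 1246 in HT vehicle and 3221 ± 718 in WT vehicle libraries, a difference of 0.23 with a 95% interval of −0.18 to 0.64. Without HT vehicle female 1, the library with the highest Synpr of all at 6640 normalized counts, that difference was 0.116.

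**Figure D3:**
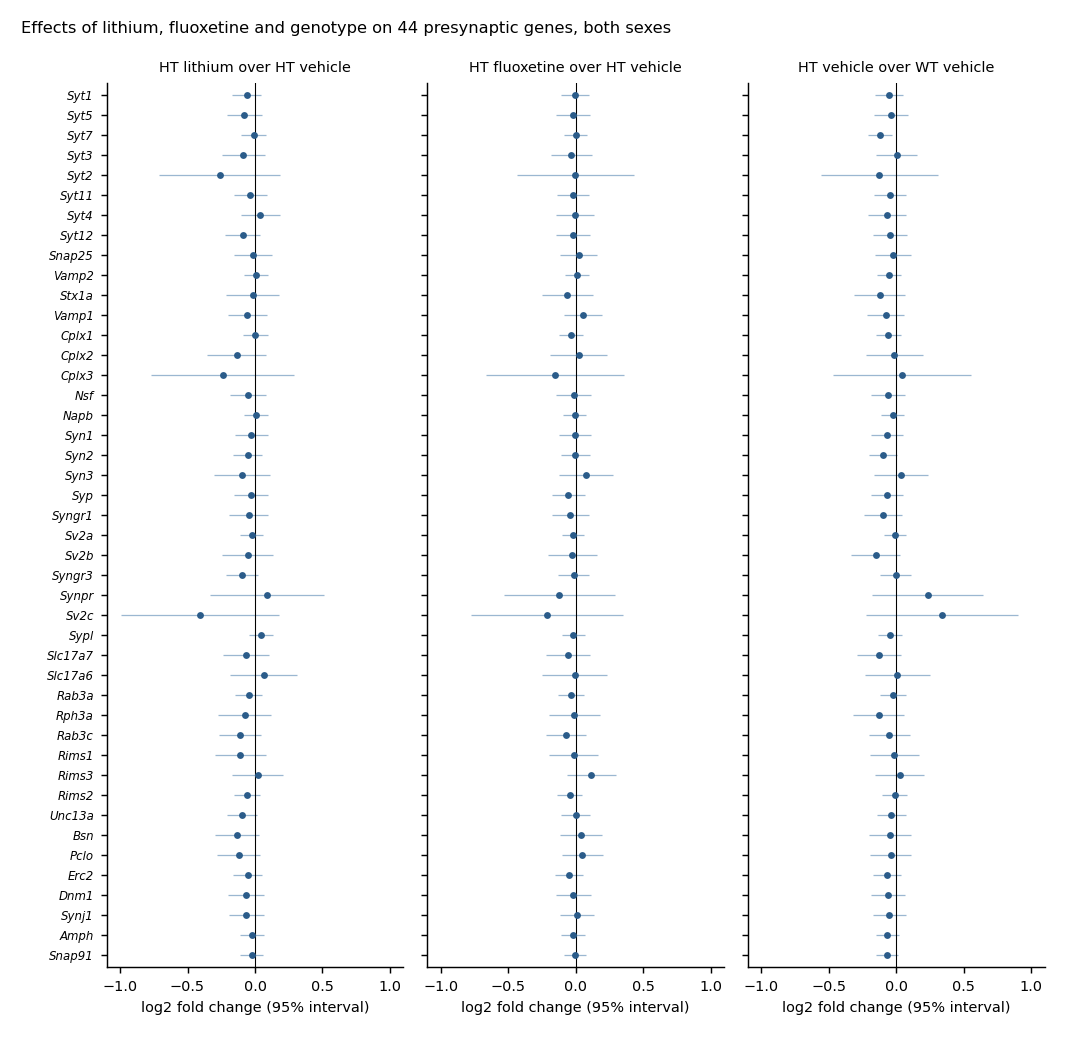
Log2 fold changes of the 44 genes, in order of role, with 95% intervals from limma, for HT lithium over HT vehicle (left), HT fluoxetine over HT vehicle (middle) and HT vehicle over WT vehicle (right). Most points lie within 0.1 of 0, and the longest intervals belong to Sv2c, Cplx3, Syt2 and Synpr.

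The intervals bound how large a difference these libraries leave room for. The whole 95% interval lay within 0.2 of 0 on the log2 scale, which is 12.9% lower to 14.9% higher, for 31 of 44 members under fluoxetine, 22 under lithium and 25 for genotype. The median size of an interval to each side was 0.128 for fluoxetine and genotype and 0.133 for lithium. As the plot of effects by gene shows, the genes outside the bound include the ones with wide intervals, so their result is a lack of precision and not a measured absence of change.

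When each drug group of HT mice was set against WT vehicle, more members had small p-values, though none was called. In HT lithium against WT, limma called 0 of 44 members, where 1.97% of all genes were called (332 genes). An unadjusted p under 0.05 was found for 16 members (36.4%), against 17.7% of all genes; edgeR gave 15 and DESeq2 16, and both called 0. All 16 were lower in HT lithium. They included all 4 active zone genes, at −0.18 for Bsn, −0.16 for Pclo, −0.13 for Unc13a and −0.12 for Erc2. The lowest limma adjusted p was 0.12, for Syt7, followed by 0.125 for Syn2 at −0.15 (SE 0.0514). Syn2 had 12285 to 15217 normalized counts in HT lithium libraries and 15239 to 17348 in WT vehicle libraries. It was the only member whose groups did not overlap in any comparison over both sexes. How many of all genes had groups without overlap was not counted, so this does not set Syn2 apart from genes in general. The count of 16 was 3 without HT lithium male 4, 5 without HT lithium female 3 or WT vehicle female 3, 8 without WT vehicle male 2, 9 without HT lithium female 1 and 25 without HT lithium male 2. It was 7 with library-sum scaling, 5 with the excitatory marker covariate and 3 with the striatal and olfactory bulb covariates, where the median was −0.042. By sex, limma called 0 members in males, where 1.4% of all genes were, and 0 in females, where 0.208% were. An unadjusted p under 0.05 was found for 21 members (47.7%) in males, against 20.7% of all genes. In females it was found for 1 (2.27%), against 6.03%. Tested as male minus female, 0 members were called, where 0.00594% of all genes were, and 1 (2.27%) had such a p, against 5.58%.

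In HT fluoxetine against WT, limma called 0 of 44 members, where 1.49% of all genes were called (251 genes). An unadjusted p under 0.05 was found for 9 members (20.5%), against 12.1% of all genes, with 8 by edgeR and 10 by DESeq2, which both called 0. Those 9 were Syt7, Slc17a7, Erc2, Cplx1, Syp, Syngr1, Sv2b, Amph and Stx1a, all lower in HT fluoxetine, with log2 fold changes between −0.18 and −0.085. The count was 1 without WT vehicle female 3. It was 3 to 5 without any 1 of HT fluoxetine female 2, female 4, male 1 or male 4, or of WT vehicle female 4, male 2, male 3 or male 4. With library-sum scaling it was 6, and with the striatal and olfactory bulb covariates, where the median was −0.037, it was 8. Rims3 was at 0.14 (limma adjusted p = 0.523) and was called at 0.15 (limma adjusted p = 0.0338) with the striatal and olfactory bulb covariates, the only member called under any alternative. By sex, limma called 0 members in females, where 0.802% of all genes were, and 0 in males, where 0.428% were. An unadjusted p under 0.05 was found for 10 members (22.7%) in females, against 11.7% of all genes. In males it was found for 1 (2.27%), against 7.78%. Tested as male minus female, 0 members were called, where 0.0654% of all genes were, and 1 (2.27%) had such a p, against 6.62%.

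Lithium and fluoxetine were also compared directly within HT mice. By limma 0 of 44 members were called, where 0% of all genes were. Bsn and Pclo, 4.5% of the members, had unadjusted p-values under 0.05 by limma, against 6.86% of all genes. There were 2 such members by edgeR and 2 by DESeq2, which both called 0. Bsn averaged 18248 ± 2566 normalized counts in HT lithium (n = 7) and 20506 ± 1441 in HT fluoxetine libraries (SD, n = 8), which is −0.17 on the log2 scale (limma adjusted p = 0.697). Pclo averaged 11292 ± 1468 in HT lithium and 12708 ± 1049 in HT fluoxetine libraries, also −0.17 (limma adjusted p = 0.691). The median over the members was −0.037. Without HT lithium male 4 it was 0.0012, with 21 of 44 negative in place of 36, and neither gene kept an unadjusted p under 0.05. The count of 2 was also 0 without HT fluoxetine male 3, 1 without any 1 of HT lithium female 1, HT fluoxetine female 3 or HT fluoxetine male 2, and 4 without HT lithium female 2 or HT lithium male 2. The members' median was −0.021 with library-sum scaling, where the median over all genes was 0.015. For the members it was −0.018 with the excitatory covariate, −0.026 with the striatal covariate and −0.00047 with the striatal and olfactory bulb covariates. The interval lay within 0.2 of 0 for 26 of the 44 members.

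The lithium difference was looked at in each sex, with 3 against 4 libraries in females and 4 against 3 in males. In males 0 of 44 members were called by limma, where 0.0773% of all genes were (13 genes), and 6 members (13.6%) had an unadjusted p under 0.05, against 13.8% of all genes. Their median was −0.109 with 37 of 44 negative. In females 0 were called, where 0% of all genes were, 0 had an unadjusted p under 0.05, and the median was 0.024 with 18 of 44 negative. Tested as a difference between the sexes, male minus female, 0 members were called, where 0% of all genes were. An unadjusted p under 0.05 was found for 4 members (9.09%), against 10.01% of all genes. These counts moved widely with single libraries. The male count of 6 was 0 without HT lithium male 4, when the median was −0.037, and 14 without HT lithium male 2, when it was −0.16. It was 1 without HT vehicle male 3, 2 without HT vehicle male 1 and 10 without HT vehicle male 2, and 0 with the striatal covariate. The male minus female count of 4 was 1 or 2 without any 1 of HT lithium female 1 or male 4, HT vehicle female 1, female 3, male 1 or male 3, or WT vehicle female 3. It was 7 to 12 without any 1 of HT lithium female 3 or male 2, HT fluoxetine female 1, HT vehicle female 2 or male 2, or WT vehicle female 2. Without HT vehicle female 1 the female median was −0.040 with 32 of 44 negative, and without both libraries the median of the male minus female difference was 0.022.

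**Figure D4:**
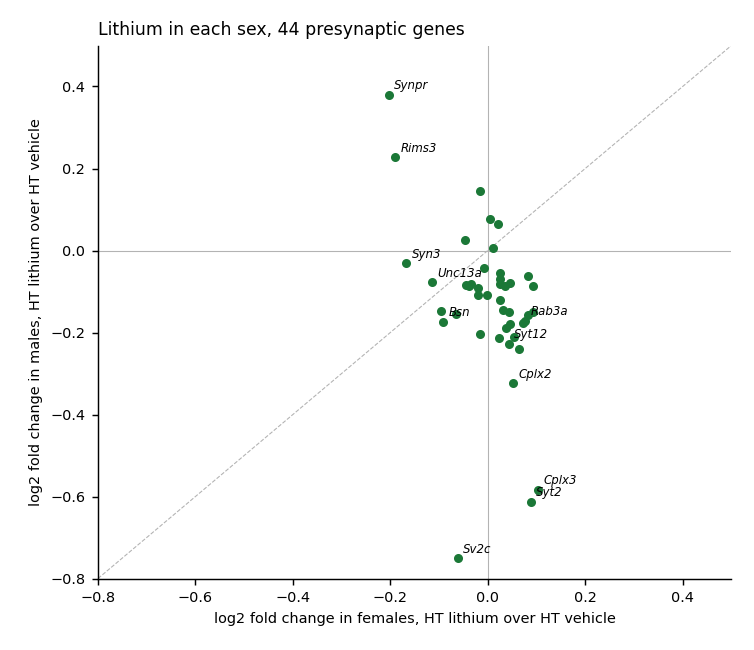
Log2 fold change of HT lithium over HT vehicle in females (horizontal axis) and males (vertical axis) for the 44 genes, with a dashed line of equal change. Most points lie below 0 in males, where the median is −0.109, and on either side of 0 in females, where it is 0.024.

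Among the members with the smallest p in males were a synaptotagmin, a Rab and a synaptogyrin. Syt12, a synaptotagmin that does not bind calcium, had 800.6 to 884.8 normalized counts in HT lithium males and 923 to 1117 in HT vehicle males, groups that did not overlap and differed by −0.23 on the log2 scale (limma adjusted p = 0.331). In females the groups overlapped, at 944 to 1216 in HT lithium and 984 to 1076 in HT vehicle libraries. Rab3a, the main Rab of synaptic vesicles, had 12223 to 15331 normalized counts in HT lithium males and 14854 to 16265 in HT vehicle males, a difference of −0.17 (limma adjusted p = 0.331), and the sexes differed by −0.25 (limma adjusted p = 0.477). Rims3 went the other way, with 5030.05 to 6078 normalized counts in HT lithium males and 4266 to 4967 in HT vehicle males. In females Rims3 had 4243 to 5027 in HT lithium and 4230.2 to 5851 in HT vehicle libraries, and the sexes differed by 0.42 (limma adjusted p = 0.482).

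Genotype and fluoxetine were likewise read within each sex, with limma only. For genotype 0 of 44 members were called in females, where 0.256% of all genes were, and 0 in males, where 0.226% were, and no member had an unadjusted p under 0.05 in either sex. Syt7 had the smallest p in both sexes, at −0.11 (SE 0.0588) in females and −0.13 (SE 0.0635) in males. The members' medians were −0.070 in females, with 39 of 44 negative, and −0.035 in males, with 32 negative. For fluoxetine 0 members were called in females, where 0% of all genes were, and 0 in males, where 0.0178% were, again with none under an unadjusted 0.05; the medians were −0.029 in females and 0.0063 in males. Tested as male minus female, 0 members were called for genotype or for fluoxetine, where 0% of all genes were in both, and 0 had an unadjusted p under 0.05.

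Over all groups, males were compared with females. By limma 0 of 44 members were called, where 0.214% of all genes were (36 genes). An unadjusted p under 0.05 was found for 1 member (2.27%), against 8.05% of all genes. That gene was Syt12, at −0.13 (SE 0.0441, limma adjusted p = 0.373), male over female. The interval lay within 0.2 of 0 for 38 of the 44 members. The median was −0.012, and without HT lithium male 4 it was 0.0077.

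HT lithium male 4 had the lowest value of all 30 libraries for 33 of the 44 members. Its members lay a median of −0.31 from their means over all libraries on the log2 scale, and they took 1.96% of its normalized counts, the lowest share. HT vehicle female 1 was next at −0.19, and WT vehicle female 3 was highest at 0.14, with the highest value for 14 members. The same 3 libraries stood apart in markers. Excitatory markers were at −0.56 in HT lithium male 4, −0.28 in HT vehicle female 1 and 0.27 in WT vehicle female 3, while olfactory bulb markers were at 2.28, 2.21 and −1.72. HT lithium male 4 also had the highest summed meningeal, thalamus and hypothalamus, and inhibitory neuron markers of all libraries, at 51679.6, 6957 and 41398 normalized counts. Not every member was low there: Sypl at 967 and Slc17a6 at 666 had their highest values of all libraries in HT lithium male 4. Synpr had 6554 normalized counts there and 6640 in HT vehicle female 1, and at most 5179 elsewhere.

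**Figure D5:**
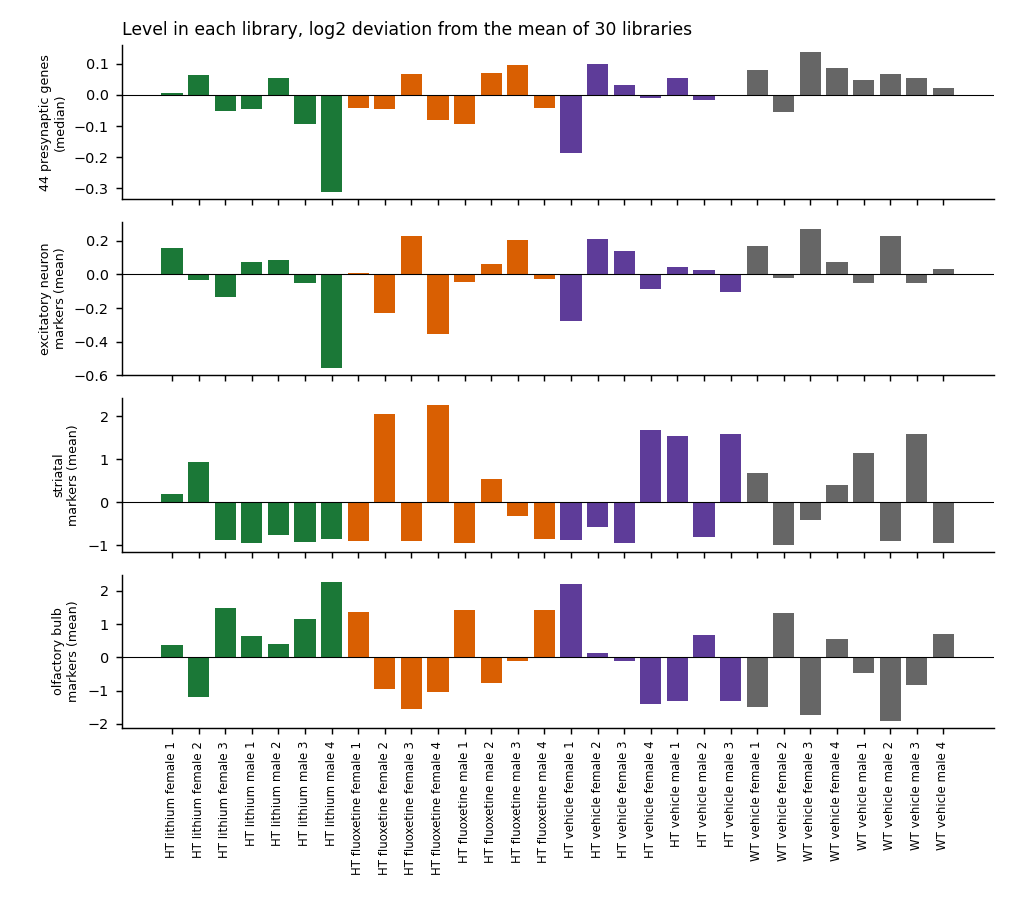
Bars give, for each of the 30 libraries, the log2 deviation from the mean of all libraries of the 44 genes (median, top) and of excitatory neuron, striatal and olfactory bulb markers (means, below). HT lithium male 4 is lowest for the 44 genes at −0.31 and for excitatory markers at −0.56, and highest for olfactory bulb markers at 2.28.

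Cplx3 had 2 separate levels across libraries. It had 224.9 to 275.3 normalized counts in 14 libraries and 383 to 525.6 in the other 16, with none between. The lower set held 4 of 7 HT lithium, 4 of 8 HT fluoxetine, 3 of 7 HT vehicle and 3 of 8 WT vehicle libraries, so each group held libraries of both levels. Striatal marker levels, as log2 deviations from the mean of all libraries, were −0.981 to −0.798 in the lower set. In the upper set they were −0.759 to 2.26, so the 2 sets did not overlap in that level either. Whether striatal content set the Cplx3 level was not tested.

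Some members share exons with a gene on the opposite strand. These shares were 17.2% of the exonic bases of Syt12 (with A930001C03Rik), 16.8% of Syp (with Gm14703), 14.5% of Syt4 (with Gm26658) and 14.1% of Syn3 (with Timp3). The libraries were made with a stranded kit, but the use of strand in quantification is not given in the sources used here, so those values may include reads of the partner gene.

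A wider list of 122 other genes of the release machinery was read in the same fits, of which 120 were in the table and tested. Under lithium, fluoxetine and genotype limma called 0 of them, with 4, 1 and 6 at an unadjusted p under 0.05. Those are 3.33%, 0.833% and 5% of the 120, against 5.72%, 2.63% and 6.6% of all genes. The medians of the 120 genes were −0.035, −0.016 and −0.028, near those of the 44 members. The 14 subunits of the vesicle proton pump, which acidifies vesicles for filling, had a genotype median of −0.063 with 0 positive. The smallest p under lithium belonged to Esyt1, an extended synaptotagmin of membrane contact sites, which had 279.9 to 398.1 normalized counts in HT lithium and 244.3 to 301.8 in HT vehicle libraries. Its log2 fold change was 0.19 (limma adjusted p = 0.82). Next came Slc2a3, at −0.091 (limma adjusted p = 0.858). Under fluoxetine the smallest p belonged to Syt14 and to Itsn2, an endocytic scaffold, at 0.11 and 0.056 on the log2 scale, both with a limma adjusted p of 1. Between the sexes limma called 0 of the 120 genes, with 9 (7.5%) at an unadjusted p under 0.05, against 8.05% of all genes. The SNARE genes Stx4a and Vti1b had the smallest, at −0.13 and −0.11, male over female (limma adjusted p = 0.086 and 0.262). In lithium against fluoxetine limma also called 0, with 5 (4.17%) at an unadjusted p under 0.05, against 6.86% of all genes. The smallest were for Syt14 at −0.16 and Rimbp2 at −0.14 (limma adjusted p = 0.474 and 0.658).

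Against WT, 4 calls were made among these 120 genes. In HT lithium against WT, limma called Slc2a3 and Rimbp2, both lower. That is 1.67% of the 120, near the 1.97% of all genes called, and 27 genes (22.5%) had an unadjusted p under 0.05, against 17.7% of all genes. Slc2a3, the neuronal glucose transporter, had 4369 to 5082 normalized counts in HT lithium and 5145 to 5679 in WT libraries, without overlap, a log2 fold change of −0.17 (SE 0.0361, limma adjusted p = 0.00904). Rimbp2, which links RIM proteins to calcium channels at the active zone, had 5735 to 7201 normalized counts in HT lithium and 7662 to 8405 in WT libraries, also without overlap. It fell by 0.235 on the log2 scale (SE 0.0539, limma adjusted p = 0.0172), and without HT lithium female 1 its limma adjusted p was 0.051. In HT vehicle against WT, Rimbp2 was at −0.14 (limma adjusted p = 0.446).

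In HT fluoxetine against WT, limma called Syt17 lower and Syt14 higher. That is again 1.67%, near the 1.49% of all genes called, and 21 genes (17.5%) had an unadjusted p under 0.05, against 12.1% of all genes. Syt17, an atypical synaptotagmin, had 1716 to 2308 normalized counts in HT fluoxetine and 2347 to 2656 in WT libraries, without overlap, a log2 fold change of −0.30 (SE 0.0674, limma adjusted p = 0.0177). In HT vehicle against WT it was at −0.23 (limma adjusted p = 0.202), and without HT lithium male 4 that difference was called (limma adjusted p = 0.014). Syt14, a synaptotagmin that does not bind calcium, had 619 to 747 normalized counts in HT fluoxetine and 574 to 636 in WT libraries. It rose by 0.18 on the log2 scale (SE 0.0441, limma adjusted p = 0.0321), and the call was lost, with adjusted p-values of 0.0608 to 0.0861, without any 1 of 9 libraries: HT fluoxetine female 1, female 2, male 1, male 3 or male 4, or WT vehicle female 3, female 4, male 1 or male 3.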

How the data were processed

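Poly(A) RNA of prefrontal cortex was sequenced from stranded libraries, per the labels' protocols. The submitters' processing notes name Salmon 0.11.2, R 3.6.0, DESeq2 1.19.11 and GRCm38. The deposited values are a signal: gene counts divided by a size factor for each library, by the authors, called normalized counts here. Dividing each library by its step recovered whole reads for 100% of values, to within 0.01. Groups came from the sample titles. The labels give 1 batch. Replicates are numbered but not tied to separate mice, so p-values measure the spread between libraries, which may be technical.

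Values were fitted as log2(normalized count + 1) with limma 3.58.1 (R 4.3.3, trend and robust) over the 16824 genes averaging 10 or more, with a mean for each of the 8 groups of genotype, treatment and sex and 22 residual degrees of freedom. Comparisons over both sexes average the sexes equally, and p-values were adjusted by Benjamini-Hochberg over all genes. A member was called at an adjusted p under 0.05. Fold changes are on the log2(value + 1) scale. The fit was tested on simulated data. edgeR 4.0.16 (quasi-likelihood) and DESeq2 1.42.0 were run on the recovered reads. Other alternatives were TMM and library-sum scaling, pseudocounts of 0.5 and 10, no filter or a mean of at least 50, the groups compared alone, a replicate block, marker covariates, and leaving out each of the 30 libraries. Marker levels are means of log2 values over a list.

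Gene names were matched for 18227 of 18240 Ensembl IDs. Gene positions come from GENCODE on GRCm38 and promoters from RefSeq on GRCm38.p6; 9 members had no promoter window. The members, gene lists and tests were chosen with earlier results of these data known. Full values are given for called members and the 4 with the smallest p in each of lithium, fluoxetine and genotype; of the wider list, called genes and genes among the 2 with the smallest p in a comparison are named. Genes described for their variability, level or sex difference were chosen after their values were seen. Replicates of a group differed by more than sampling noise in all 42 pairs (chi-square over degrees of freedom 4.57 to 30.1), so none was treated as a duplicate.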

Additional observations from a re-analysis of the deposited data

Results flagged for a closer look

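In groups of 4 libraries, 20 genes and the members' share of normalized counts were tested, 126 combinations with a group. In 9 of them 1 library lay far from the others, with its gap to the nearest more than 0.829 of the group's range. Chance alone gives this in about 1 in 20 groups. All values are normalized counts.

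HT vehicle female 1 stood apart for 3 genes. It had 10885.9 for Rab3c, where the other 3 HT vehicle females had 14461 to 15129, 4396.49 for Erc2 (others 5428 to 5567) and 6639.72 for Synpr (others 3352 to 3738). WT vehicle female 2 was low for Cplx2, at 26653.1 (others 33091 to 33244), and for Rab3a, at 13670.4 (others 15618 to 15789). WT vehicle female 3 was high for Syt7, at 14614.8 (others 13311 to 13446).

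Among HT fluoxetine females, female 2 was high for Rab3c at 14438.1 (others 12499 to 12804) and female 3 was high for Rims2 at 3389.45 (others 3138 to 3162). HT lithium male 4 was low for Syt12 at 800.641 (others 882 to 885).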

How the results depend on the processing

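No member was called in any of the 6 comparisons among lithium, fluoxetine, genotype and the drug groups against WT under any alternative, except Rims3 in HT fluoxetine against WT, 1 member called with striatal and olfactory bulb covariates together, a setting added after the data were seen. The cause was not tested. Leaving out each library in turn left 0 members called (0 to 0) in all 6. The members' medians then ranged over −0.090 to −0.019 for lithium, −0.032 to 0.0023 for fluoxetine, −0.072 to −0.024 for genotype, −0.139 to −0.078 for lithium against WT, −0.082 to −0.043 for fluoxetine against WT and −0.064 to 0.0012 for lithium against fluoxetine. For fluoxetine and for lithium against fluoxetine the range includes a change of sign. Library medians vary within a group with an SD of 0.0912. This is the spread of single libraries and not the error of a difference between group means, which was not computed for the medians. For lithium against fluoxetine the main value of −0.037 was 0.0012 without HT lithium male 4, −0.064 without HT lithium male 2, and −0.021, −0.016 and −0.017 without HT fluoxetine male 2, HT fluoxetine male 3 and HT lithium female 3.

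With the replicate number as a block, 0 members were called and the medians were −0.055 for lithium, −0.0091 for fluoxetine, −0.057 for genotype, −0.123 for lithium against WT, −0.062 for fluoxetine against WT and −0.048 for lithium against fluoxetine. Replicate numbers were taken from the sample titles, which differ from the numbers in the library names for some HT lithium females. Same-numbered libraries did not deviate together throughout: their correlations were −0.345 to 0.15 for HT and WT vehicle females, 0.17 to 0.278 for the males, and −0.43 to 0.446 for the drug groups with HT vehicle.

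Of single genes, Cplx3 under lithium turned to 0.0076 with the striatal covariate and to 0.064 with striatal and olfactory bulb covariates. Syt17 in HT against WT vehicle was called with the compared groups alone (limma adjusted p = 0.0383), with the excitatory covariate (0.0319) and with HT lithium male 4 left out together with HT vehicle female 1 (0.0347). Library-sum scaling moved the median of all genes most in lithium against WT, where it was 0.038, against −0.0015 with the deposited scaling. Depth did not keep any member from being tested: the lowest mean was 355 normalized counts, for Cplx3.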
